A study of Drosophila melanogaster with 4 samples.

Results

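The seminal fluid genes described here are the genes of the Drosophila melanogaster annotation whose symbols are Acp or Sfp followed by 2 digits, together with SP. The rule took 47 of 18277 annotated genes, 18 with Acp symbols, 28 with Sfp symbols and SP itself. One of them, Acp65Aa, carries the name of an adult cuticle protein and not of an accessory gland protein, and it had no start cluster in either group. The knockdown group, KmgKD, had the genotype bamGAL4/ KmgRNAi, RNA interference against kmg under a driver active in spermatogonia, and the control group, Control, carried bamGAL4 alone. Both groups thus carried the driver, and the knockdown was driven in early germ cells. Each group had 2 libraries of cap analysis of gene expression (CAGE) from testes pooled over many males aged 0 to 2 days, grown at 29 °C after crosses at 25 °C. CAGE counts the capped 5′ ends of RNAs, called tags, and places each on a base and a strand. Kmg is a zinc finger protein of spermatocytes, and the series asks whether it keeps cryptic promoters silent.

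Seminal fluid proteins are made mostly in the male accessory glands, paired organs beside the testes, and are passed to the female with the sperm. In the mated female they change egg laying, ovulation, sperm storage and the readiness to mate again. SP, the sex peptide, binds sperm and acts through a receptor on neurons of the female tract. The genes are usually short, and many lie side by side with related copies. Accessory glands are not part of the testis, and bam drives expression in germ cells. The tissue was labelled as testes, and all 8 spermatocyte and spermatid markers examined had a cluster at an annotated start. Their median log2 ratio was -0.07, with w-cup (428 TPM in KmgKD and 7051 TPM in Control) and dj (541 TPM in KmgKD and 2716 TPM in Control) lower by the 4-fold rule given below and mia (332 TPM in KmgKD and 35.9 TPM in Control) higher.

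The tables held 1 pooled value per group over its 2 libraries, 34975246 tags in KmgKD and 56519714 tags in Control. Levels are given as TPM, the tags of a gene per 1000000 tags of all clusters in that group. No difference below has a replicate check, no p-value was computed, and intervals are 95% intervals that cover counting error only. KmgKD libraries were read at 150 bp and Control libraries at 76 bp, so genotype and read length cannot be told apart. The kmg gene stood at 12.7 TPM in KmgKD and 48.5 TPM in Control when every cluster in the gene was summed. At its annotated start it had 0.0858 TPM in KmgKD and 1.72 TPM in Control. The log2 ratios, -1.86 summed and -1.32 at the annotated start, were short of the 4-fold rule given below. In testis RNA, fewer cells of a type and less RNA per cell cannot be told apart either.

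Fewer seminal fluid genes had any start cluster in the knockdown. A cluster was found in 19 of the 47 genes (40.4%) in KmgKD and in 30 (63.8%) in Control. Of all protein-coding genes, 83.2% had one in KmgKD and 75.8% in Control. All 19 genes with a KmgKD cluster also had a Control cluster, so no seminal fluid gene was found in KmgKD alone. Of the 30, 16 were Acp genes, 13 were Sfp genes and SP was the last.

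A further 17 genes had no cluster in either group. They were 15 Sfp genes and the Acp genes Acp54A1 and Acp65Aa. Sfp24Ba, Sfp24Bd, Sfp24Bb, Sfp24Bc and Sfp24C1, which lie on chromosome 2L between 3667977 and 3701092, were among them. Acp24A4, which lies in the same stretch from 3693184 to 3693905, had a cluster in Control, in its 3′ UTR. That cluster can belong to the next gene, CG3513, as described below. Acp24A4 is counted among the genes with a Control cluster through it alone. The others were Sfp23F, Sfp33A1, Sfp33A2, Sfp36F, Sfp38D, Sfp60F, Sfp77F, Sfp79B, Sfp84E and Sfp87B. A cluster of a single position was listed only from 50 tags upward, so these genes are below the listing and are not shown to be silent.

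At annotated transcription start sites (TSSs), 26 of the 27 seminal fluid genes tested had a log2 ratio of KmgKD to Control below 0, and 16 of them passed a 4-fold rule, against 9.53% of all genes. A start counted as annotated when the most used base of its cluster, the dominant position, lay within 100 bp of an annotated TSS on the same strand. Of the 29 genes with such a cluster, 27 reached 1 TPM in either group. By a rule of 4-fold on log2((KmgKD + 1) / (Control + 1)), 16 of the 27 were lower and 0 were higher, against 9.53% lower and 7.71% higher over the 10921 genes tested at annotated starts. A level under 3 TPM in Control cannot fall by 4-fold on this scale, and 18 of the 27 passed the filter through Control only. Of the 20 genes with at least 3 TPM in Control, 16 were lower, beside 12.3% of the 8493 genes at that level. Of the 8110 genes with 1 to 100 TPM in Control, 9% were lower and 3.95% higher. The median log2 ratio of the 27 genes was -2.42, and that of all genes was -0.05. Without the added 1 TPM and with genes at 0 tags set to their own bound, the median of these genes was -4.08. For all genes, with 0 tags set to 3 tags, it was -0.05.

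**Figure D1:**
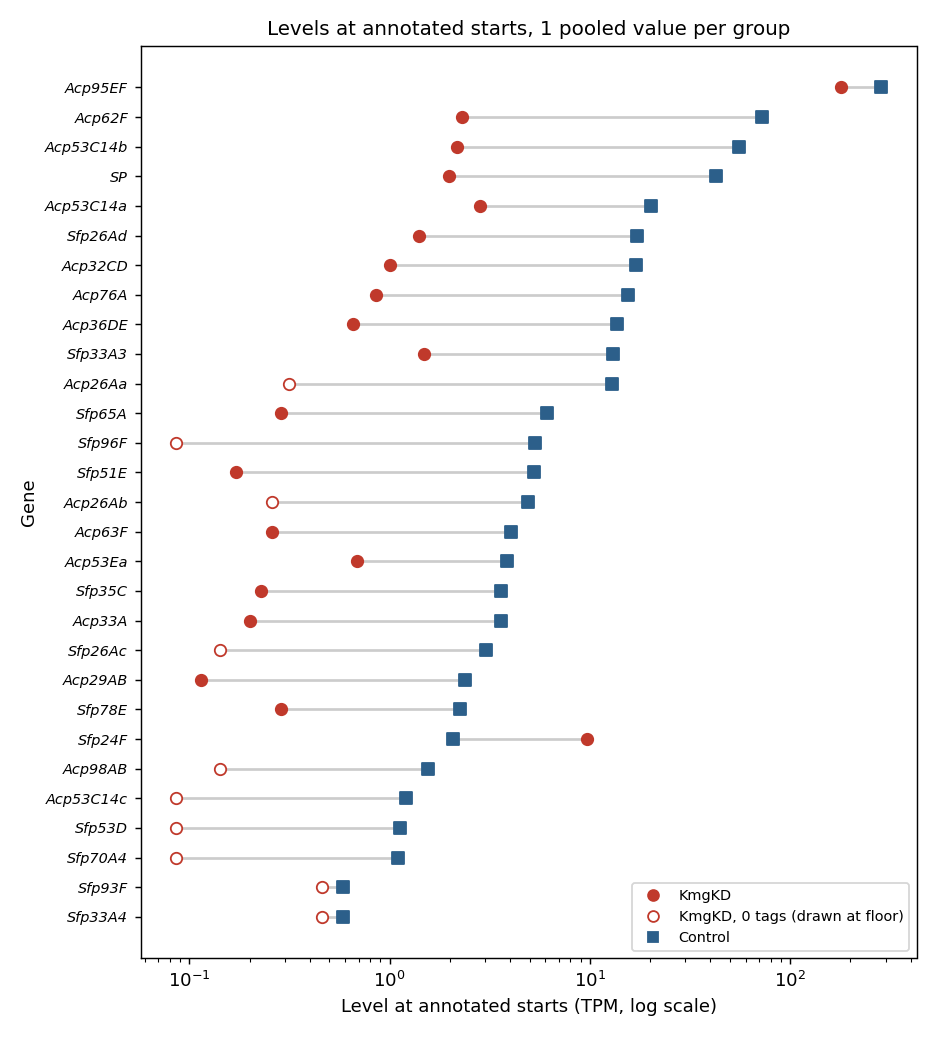
Levels at annotated starts (TPM, log scale) of the 29 seminal fluid genes with such a cluster, 1 pooled value per group, ordered by the Control level. Circles are KmgKD, squares are Control, and open circles mark 0 KmgKD tags drawn at the largest number of tags the lists leave room for. Sfp24F is the one gene whose circle lies to the right of its square.

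Among genes whose proteins act in the mated female, SP, Acp26Aa and Acp36DE fell at annotated starts. SP had 69 tags (1.97 TPM) in KmgKD and 2407 tags (42.6 TPM) in Control, 21.6-fold lower (counting interval 17.0 to 27.8). Acp26Aa, which encodes ovulin, a protein that stimulates ovulation, had 0 tags in KmgKD and 725 tags (12.8 TPM) in Control. It was at least 40.8-fold lower against 11 tags, the most that the consensus list leaves beyond the called clusters. Acp36DE, a glycoprotein needed for sperm storage, had 0.658 TPM at its annotated start in KmgKD and 13.7 TPM in Control, 20.8-fold lower (13.8 to 33.0). Acp29AB, a lectin that helps retain stored sperm, had 4 tags (0.114 TPM) in KmgKD and 135 tags (2.39 TPM) in Control and was too low in Control to pass the rule. At annotated starts the groups stood far apart for each of these genes, and Control was the higher in all of them. Acp36DE and Acp29AB also had coding-exon starts, which are given below.

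Acp62F and Acp76A, which both encode protease inhibitors, also fell. Acp62F, a trypsin inhibitor, had 80 tags (2.29 TPM) in KmgKD and 4106 tags (72.6 TPM) in Control, 31.8-fold lower (25.5 to 40.1). This was the largest fall on the log2 scale among the 27 genes, at -4.49. Acp76A, a serpin, had 0.858 TPM in KmgKD and 15.5 TPM in Control, 18.0-fold lower (12.6 to 26.9). Its start lay 16 bp before the annotated TSS in both groups.

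On chromosome 2L, the neighbours Sfp26Ac, Acp26Ab, Acp26Aa and Sfp26Ad, spread from 5884350 to 5943304, were all lower. Acp26Ab had 0 tags in KmgKD and 4.92 TPM in Control, at least 19.1-fold lower. Sfp26Ac had 0 tags in KmgKD and 3.04 TPM in Control, at least 21.3-fold lower. Sfp26Ad had 1.40 TPM at its annotated start in KmgKD and 17.2 TPM in Control, 12.3-fold lower (9.20 to 16.7).

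A second group of neighbours, of which 2 of 5 were lower, lies on chromosome 2R from 16744295 to 16751495 and holds Sfp53D, Acp53C14a, Acp53C14b, Acp53Ea and Acp53C14c. Acp53C14b was the strongest of them in Control, with 2.17 TPM at its annotated start in KmgKD and 55.8 TPM in Control, 25.7-fold lower (20.4 to 32.7). Acp53C14a had 2.83 TPM in KmgKD and 20.1 TPM in Control, 7.11-fold lower (5.79 to 8.83), the smallest fold among the 12 lower genes that kept KmgKD tags. Acp53Ea had 0.686 TPM in KmgKD and 3.84 TPM in Control, a log2 ratio of -1.52, short of the rule. Sfp53D and Acp53C14c had 0 tags at annotated starts in KmgKD and 1.13 and 1.20 TPM in Control. At annotated starts within this stretch of neighbours the Control levels thus ranged widely, while every KmgKD level was under 3 TPM. These 4 Acp genes are related copies, so reads could be split between them.

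A further 6 genes passed the rule downward. Acp32CD had 1.00 TPM at annotated starts in KmgKD and 16.9 TPM in Control, 16.9-fold lower (12.1 to 24.5). Sfp33A3 had 1.49 TPM in KmgKD and 13.0 TPM in Control, 8.75-fold lower (6.60 to 11.8). Sfp65A had 0.286 TPM in KmgKD and 6.09 TPM in Control, 21.3-fold lower (11.4 to 44.8). The last members of this group were low in Control and almost gone from KmgKD. Sfp51E had 6 tags (0.172 TPM) in KmgKD and 298 tags (5.27 TPM) in Control, 30.7-fold lower (14.0 to 84.4). Sfp96F had 0 tags in KmgKD and 302 tags (5.34 TPM) in Control, at least 62.3-fold lower against a floor of 3 tags. Acp63F had 9 tags (0.257 TPM) in KmgKD and 228 tags (4.03 TPM) in Control, with a log2 ratio of -2.001 just past the rule.

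The remaining 11 genes tested did not pass. Apart from Acp95EF and Sfp24F, 9 of them had at most 0.686 TPM in KmgKD and 1.10 to 3.84 TPM in Control, with log2 ratios from -1.94 to -1.07. They were Acp29AB, Acp33A, Sfp35C, Sfp53D, Acp53Ea, Acp53C14c, Sfp70A4, Sfp78E and Acp98AB. Acp33A, at 0.200 TPM in KmgKD and 3.59 TPM in Control, and Sfp35C, at 0.229 TPM in KmgKD and 3.61 TPM in Control, lay just outside the rule, and both passed it when KmgKD levels were scaled down 1.64-fold, the median ratio of shared clusters, at -2.03 and -2.02. Sfp33A4 and Sfp93F each had 0 tags in called KmgKD clusters and 33 tags in Control and were under the filter. The lists leave room for 16 KmgKD tags in each, so they are not shown to be absent.

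Acp95EF, which encodes a short accessory gland peptide, differed from the rest in level and in position. It had 6303 tags (180 TPM) in KmgKD and 16121 tags (285 TPM) in Control, 1.58-fold lower (1.54 to 1.63) and short of the rule at a log2 ratio of -0.66. Its cluster lay on chromosome 3R between 24228795 and 24229000 in KmgKD and between 24228801 and 24229000 in Control. The dominant position lay 99 bp before the annotated TSS in KmgKD, with 54.4% of the tags, and 17 bp before it in Control, with 57.0% of the tags. The interquantile width, the distance that holds the middle of a cluster's tags, was 30 bp in KmgKD and 84 bp in Control. Both starts fell inside the 100 bp window, the KmgKD start only just, so the level of Acp95EF sums over different starts. With a window of 50 bp its KmgKD start falls outside. Under that window 18 of the 47 genes had a KmgKD cluster, in place of 19, and 17 were lower at annotated starts, in place of 16. The KmgKD level of Acp95EF and its missing call thus depend on the window. Tags at each single base other than the dominant one were not analysed here.

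Sfp24F went the other way without passing the rule. It had 339 tags (9.69 TPM) in KmgKD and 117 tags (2.07 TPM) in Control, a ratio of 4.68 (3.78 to 5.83) and a log2 ratio of 1.80. The dominant position was the annotated base in both groups, and the width was 9 bp in both. No other seminal fluid gene was higher at its annotated start.

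Summed over the 29 genes, annotated starts held 207 TPM in KmgKD and 618 TPM in Control, 2.99-fold lower (2.91 to 3.07). Acp95EF held 180 TPM of this sum in KmgKD and 285 TPM in Control. Without it, the sum was 26.6 TPM in KmgKD and 333 TPM in Control, 12.5-fold lower (11.7 to 13.4).

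**Figure D2:**
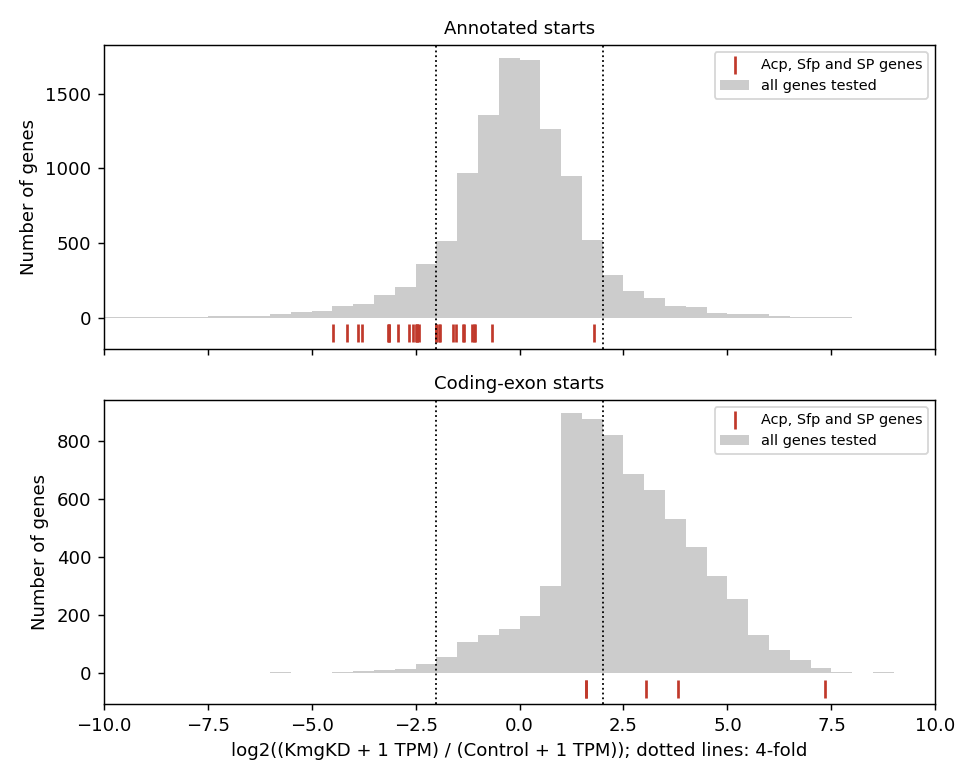
Numbers of genes by log2((KmgKD + 1 TPM) / (Control + 1 TPM)) at annotated starts (above) and coding-exon starts (below), with all tested genes as grey bars and the seminal fluid genes as red ticks. At annotated starts the ticks lie mostly left of 0, and at coding-exon starts all 5, with a shared position for Sfp26Ad and Acp29AB, lie right of 0 where most genes lie.

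The starts that were called at annotated sites were mostly narrow, and most lay at or near the same base in both groups. Each of the 29 genes in Control had its strongest annotated cluster within 20 bp of the TSS. Of the 19 genes with an annotated cluster in both groups, 11 had the same dominant position, 5 differed by up to 10 bp and 3 by more. The 3 were Acp95EF, Acp32CD and Sfp51E. Their strongest annotated clusters in KmgKD held 6303, 32 and 6 tags. In Sfp51E the dominant base held 2 of its 6 tags, so its position is uncertain. Sharp clusters of 10 bp or less made up 15 of 20 annotated clusters of these genes in KmgKD and 22 of 30 in Control. Over all genes the shares were 25.4% in KmgKD and 27.6% in Control. The median width was 5 bp in KmgKD and 4 bp in Control for these genes, against 41 bp in KmgKD and 36 bp in Control for all annotated clusters. Widths were not matched for the number of tags, and a cluster with few tags can be narrow for that reason. In KmgKD the annotated clusters of these genes held from 3 tags in Acp32CD to 6303 tags in Acp95EF. The SP cluster had 2 start positions in KmgKD and 3 in Control, and the dominant one lay 3 bp before the annotated TSS in both groups.

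Inside coding exons, the direction was the reverse. Of the 47 genes, 5 had a cluster whose dominant position lay in a coding exon more than 100 bp from the annotated TSS. All 5 were above 0 on the log2 scale, 3 passed the rule upward and 0 downward. Over the 6759 genes tested at coding-exon starts, 58.8% were higher and 1.02% lower, with a median log2 ratio of 2.36, against 3.05 for these 5. Without the added 1 TPM, the median was 5.26 for these 5, with 0 tags set to each gene's bound, and 5.39 for all genes, with 0 tags set to 3 tags. The share of seminal fluid genes that were higher, 3 of 5, was thus near the share of all genes, and 4 of the 5 passed the filter through KmgKD only.

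**Figure D3:**
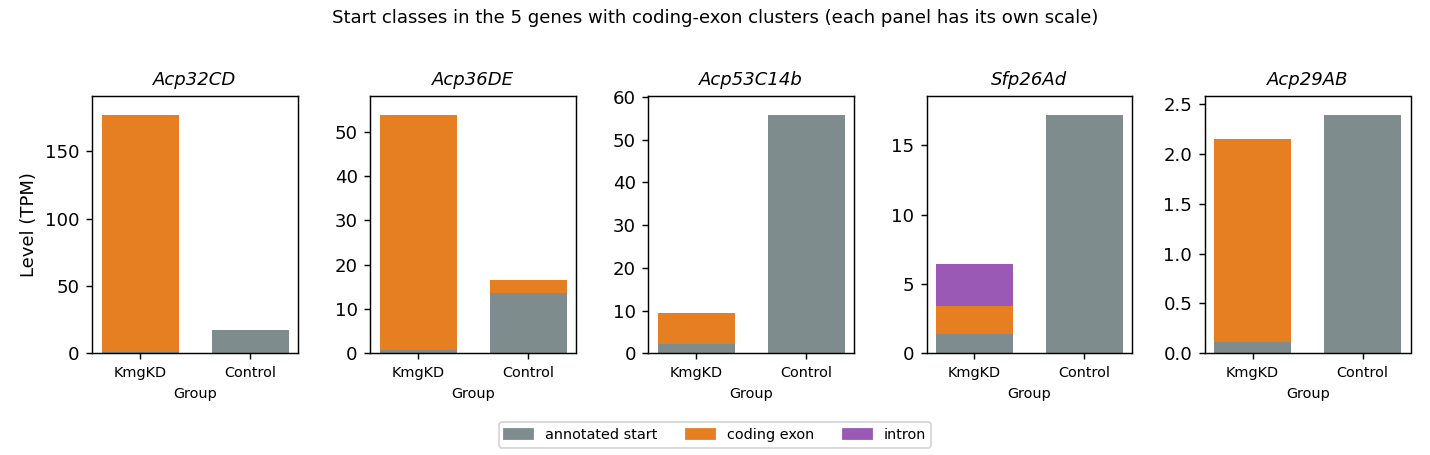
Levels (TPM, linear scale, a separate scale for each gene) at annotated starts, coding exons and introns in the 5 seminal fluid genes with a coding-exon cluster, with KmgKD left of Control in each panel. Coding exons hold nearly all of the KmgKD bar in Acp32CD, Acp36DE and Acp29AB, and annotated starts hold most of every Control bar.

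Acp32CD, an accessory gland protein gene, had the strongest of these starts. The cluster inside its coding exon, on chromosome 2L from 11016140 to 11016234, on the plus strand, had 6158 tags (176 TPM) in KmgKD. A smaller cluster from 11016161 to 11016192 had 5 tags (0.0885 TPM) in Control, so the ratio was 1990 (852 to 6132). The KmgKD dominant position lay 530 bp past the annotated TSS, with 66.8% of the coding bases before it. The annotated start moved in the opposite direction in the same gene. The cluster 8 bp past the TSS had 3 tags in KmgKD and 958 tags in Control, a ratio of 0.00506 (0.00104 to 0.0148). Another 32 tags in KmgKD lay in a cluster 64 bp before the TSS, with no cluster there in Control. Coding exons held 99.4% (Wilson interval 99.2 to 99.6) of the tags of Acp32CD in KmgKD and 0.519% (0.222 to 1.21) in Control. Summed over all clusters of each gene, those in introns and UTRs included, Acp32CD was the one seminal fluid gene higher by the rule. It had 177 TPM in KmgKD and 17.0 TPM in Control, while 13 of the 28 genes tested in this way were lower. Over all 12864 genes tested on summed clusters, 21.3% were higher and 5.42% lower.

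Acp36DE, the longest of the 47 genes at 2982 bp, showed the same pair of changes. The cluster inside its coding exon, on chromosome 2L from 18357416 to 18357614, on the minus strand, was called in both groups, with 1858 tags (53.1 TPM) in KmgKD and 162 tags (2.87 TPM) in Control, a ratio of 18.5 (15.8 to 21.9). The dominant position lay 1549 bp past the annotated TSS in KmgKD and 1438 bp past it in Control. The cluster was broad, with a width of 150 bp in KmgKD and 134 bp in Control. Coding exons held 98.8% (98.2 to 99.2) of its tags in KmgKD and 17.3% (15.04 to 19.88) in Control. The sum over the gene, 53.8 TPM in KmgKD and 16.5 TPM in Control, was thus higher in KmgKD, with a log2 ratio of 1.64 short of the rule, although the annotated start was lower.

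Acp53C14b gained a weaker coding-exon start. The cluster on chromosome 2R from 16749212 to 16749314, on the minus strand, had 254 tags (7.26 TPM) in KmgKD and 0 tags in Control, at least 137-fold higher over a floor of 3 tags. It lay 213 bp past the annotated TSS. Coding exons held 77.0% (72.1 to 81.2) of the gene's tags in KmgKD. The sum over the gene was still lower, at 9.44 TPM in KmgKD and 55.8 TPM in Control, 5.91-fold (5.28 to 6.64).

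**Figure D4:**
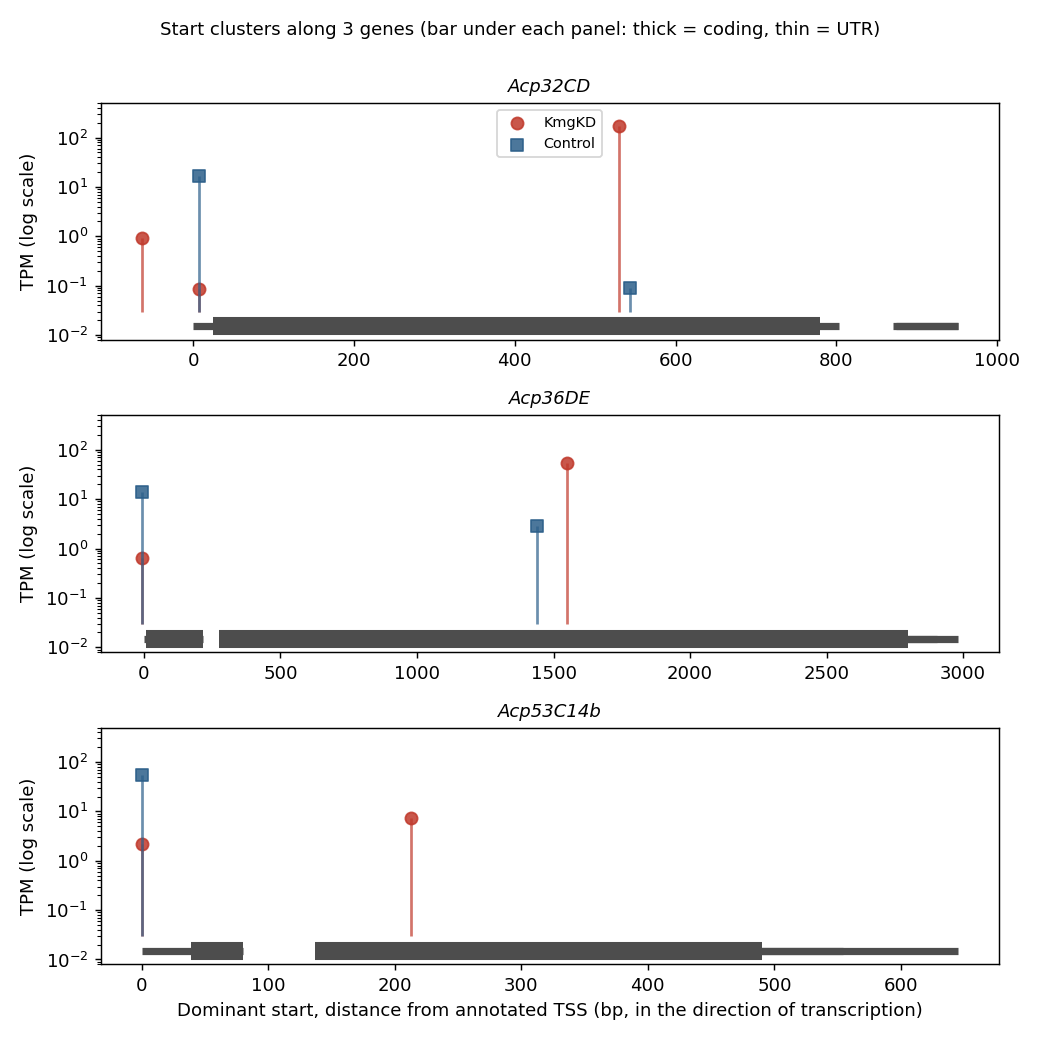
Start clusters of KmgKD (circles) and Control (squares) along Acp32CD, Acp36DE and Acp53C14b, by the distance of the dominant position from the annotated TSS (bp) and the level (TPM, log scale), with coding (thick) and untranslated (thin) exons drawn below. In each gene the Control square is the higher mark at the annotated start and the KmgKD circle is the highest mark within the coding exon.

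The other coding-exon starts were low. Sfp26Ad and Acp29AB each had 71 tags (2.03 TPM) in a coding exon in KmgKD and 0 tags in Control, at least 38.2-fold higher, and short of the rule at a log2 ratio of 1.60. The positions were 337 bp past the annotated TSS in Sfp26Ad and 426 bp past it in Acp29AB. Sfp26Ad also had an intronic start at a single base, 147 bp past the nearest TSS, with 106 tags (3.03 TPM) in KmgKD and 0 tags in Control, at least 42.8-fold higher and just past the rule at 2.01. Over the 3613 genes tested at intron starts, 39.7% were higher and 4.37% lower. In Acp29AB the annotated and coding-exon tags nearly balanced, so that the gene summed to 2.14 TPM in KmgKD and 2.39 TPM in Control.

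By the median width in KmgKD, coding-exon starts of these genes were broader than their annotated starts. Sfp26Ad went the other way, at 8 bp in its coding exon and 19 bp at its annotated start in KmgKD. The 5 KmgKD clusters had widths from 8 to 150 bp with a median of 61 bp, and the median over all coding-exon clusters in KmgKD was 34 bp. The dominant base held a median of 29.3% of the tags in these 5 clusters, against 65.9% in the annotated clusters of seminal fluid genes in KmgKD. With 5 clusters, these widths are a description.

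Few seminal fluid genes had a coding-exon start at all. A coding-exon cluster in either group was found in 10.6% of the 47 genes and in 53.8% of the 13968 protein-coding genes. The genes were short, with a median length of 515 bp against 2164.5 bp for all protein-coding genes. Among genes of up to 1000 bp, coding-exon clusters were found in 4 of 42 seminal fluid genes (9.52%) and in 30.3% of the 2689 protein-coding genes of that length. All but 1 of the 47 genes had some coding base more than 100 bp from the TSS. The number of such bases ran from 15 in Sfp96F, 21 in Sfp79B and 67 in SP to 2641 in Acp36DE. The comparison by gene length was not matched for this number. There were 0 clusters antisense to these genes inside their bodies in KmgKD and 0 in Control.

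Starts outside these classes were seen in Control only, each at a low level. At 1 base of its 5′ UTR, Acp53C14c had 0 tags in KmgKD and 81 tags (1.43 TPM) in Control. In its 3′ UTR, Acp24A4 had 0 tags in KmgKD, where the lists leave room for 23, and 124 tags (2.19 TPM) in Control. The Acp24A4 cluster lies within 100 bp of the annotated TSS of the next gene, CG3513, on the same strand, so it can belong to CG3513.

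Counting tags over all starts, coding exons held a larger share in the knockdown. Annotated starts held 45.9% (45.1 to 46.7) of their tags in KmgKD and 98.9% (98.8 to 99.0) in Control. Coding exons held 53.4% (52.6 to 54.2) in KmgKD and 0.473% (0.407 to 0.550) in Control. Without Acp95EF, coding exons held 89.0% (88.4 to 89.6) of 9448 tags in KmgKD and 0.870% (0.749 to 1.01) of 19185 tags in Control. In KmgKD this share rests on Acp32CD and Acp36DE, which had 6158 and 1858 of the 8412 coding-exon tags. The share of tags over all genes is not given here. Of the 6759 genes tested at coding-exon starts, 58.8% were higher in KmgKD, so a shift toward coding exons is not shown to be particular to these genes.

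Of 30 other genes of the seminal fluid and male tract, outside the symbol rule, 23 were tested at annotated starts, 13 were lower and 0 higher, against 9.53% lower and 7.71% higher over all genes, with a median log2 ratio of -2.03. All 4 accessory gland peptide genes were lower. Mst57Dc had 1.20 TPM in KmgKD and 77.7 TPM in Control, and msopa had 5.12 TPM in KmgKD and 118 TPM in Control. Of the 8 genes of the sex peptide network, whose proteins help SP stay on sperm, 6 were tested and 4 were lower. CG17575 had 0.0858 TPM in KmgKD and 5.27 TPM in Control, and lectin-46Ca had 0.0858 TPM in KmgKD and 4.92 TPM in Control. In coding exons lectin-46Ca had 8.63 TPM in KmgKD and 0.0354 TPM in Control, and antr and aqrs were also higher there, at 6.09 and 3.60 TPM in KmgKD and 0 tags in Control.

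Of 7 genes of the ejaculatory duct and bulb, 5 were tested at annotated starts, 2 were lower and 0 higher. For this list and those that follow, 9.53% of all genes were lower and 7.71% higher at annotated starts. Dup99B, a peptide related to SP, had 0.743 TPM in KmgKD and 7.13 TPM in Control, and Anp, the antibacterial peptide andropin, had 0.572 TPM in KmgKD and 8.19 TPM in Control. Both fell. EbpIII, an ejaculatory bulb protein, had 273 TPM in KmgKD and 222 TPM in Control, and the esterase gene Est-6 had 14.6 TPM in KmgKD and 48.3 TPM in Control, and neither passed. Gld, a glucose dehydrogenase gene, had 9.69 TPM at its annotated start in KmgKD and 6.46 TPM in Control, which did not pass, and 34.9 TPM in coding exons in KmgKD and 0 tags in Control. Summed over clusters, 24 of the 30 other genes were tested, 2 were higher and 11 lower. Over all genes tested on summed clusters, 21.3% were higher and 5.42% lower. The 2 were Gld, at 79.2 TPM in KmgKD and 6.58 TPM in Control, and antr, at 20.5 TPM in KmgKD and 2.80 TPM in Control. Of 6 odorant-binding protein genes of seminal fluid, 5 were tested at annotated starts. Obp51a, Obp56e and Obp56f fell there, while Obp56i was at 37.1 TPM in KmgKD and 23.7 TPM in Control. Of 5 genes for transcription factors of the gland, 3 were tested at annotated starts and 0 passed, while Poxn and HGTX had no cluster there. Across the 30 genes, 5 were tested in coding exons and all 5 were higher there, against 58.8% of all genes tested, with prd among them at 7.63 TPM in KmgKD and 0.142 TPM in Control. At annotated starts the gland factor prd had 10.6 TPM in KmgKD and 5.15 TPM in Control, and the Hox gene Abd-B had 15.8 TPM in KmgKD and 5.54 TPM in Control.

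Markers of other cell types were examined in the same way, beside 9.53% lower and 7.71% higher over all genes at annotated starts. Of 8 muscle markers at annotated starts, 1 was lower and 0 higher and 7 had a log2 ratio below 0, with a median of -1.25. They summed to 396 TPM in KmgKD and 1252.5 TPM in Control. The lower one, Act87E, held 83.8 TPM of this in KmgKD and 598 TPM in Control. Of 4 fat body markers, 3 were tested and Tsf1 was lower, at 16.9 TPM in KmgKD and 133 TPM in Control. The fat body list summed to 22.3 TPM in KmgKD and 134 TPM in Control, and most of it was Tsf1. Fbp1 had 3.57 TPM in KmgKD and 0.902 TPM in Control, Lsp2 had 1.80 TPM in KmgKD and 0 tags in Control, and neither passed. Yp1 had no cluster in either group, and the median log2 ratio of the 3 tested was 1.27. The part of muscle, gland or fat body tissue in the seminal fluid results was not tested.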

How the data were processed

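CAGE tags were measured in 4 libraries, 2 per group. Per the submitters' processing notes, the tools were Trim Galore 0.6.6, bedtools and STAR 2.7.11b, and the builds dm6 and BDGP6, with no role given. The cluster caller was not given in the sources used here. Deposited by the authors were 3 tables, the clusters of each group pooled over its libraries and a consensus list. The column named TPM per the file headers held whole numbers, so the deposited values were used as tag counts and scaled to 1000000 tags over the group's clusters. The other deposited measures were the number of start positions per cluster, a count, and the interquantile width in bp between the 0.1 and 0.9 quantiles, per the file headers. The depth was 34975246 tags in KmgKD and 56519714 tags in Control.

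Gene models came from Ensembl release 115, in dm6 coordinates. A cluster was given to every gene on its strand that held its dominant position or had a TSS within 100 bp. Genes with at least 1 TPM in either group in a class of starts were compared by log2 with a pseudocount of 1 TPM and a 4-fold rule. Counting intervals are exact binomial for ratios and Wilson for shares. A value of 0 tags was given a floor of 3 tags, or of the tags the consensus list held beyond the called clusters where these were more. Consensus clusters were listed from 50 tags, and where no consensus cluster was listed, the floor was what that leaves.

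Full values are given for genes with at least 5 TPM at annotated or coding-exon starts in either group, or past the rule there. Acp29AB, Acp33A, Sfp35C, Acp53Ea and genes in other classes were named after their values were seen. The members and lists were chosen with earlier results of these data known. The planned test over libraries could not be run on pooled tables. Python 3.11.15, pandas 2.3.3, NumPy 2.4.6 and SciPy 1.17.1 were used, and the calculation was tested on simulated data. The backgrounds of genes with 1 to 100 TPM and with at least 3 TPM in Control were chosen after seeing the data. No genome sequence was used here, so none is printed and the planned description of promoter letters was not run.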

Additional observations from a re-analysis of the deposited data

How the results depend on the processing

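Directions held for the counts and medians under the alternatives run. Rescaling used the 25902 consensus clusters called in both groups, whose median log2 ratio of KmgKD to Control was 0.71. It added Acp33A and Sfp35C to the lower genes, 18 at annotated starts and 15 when summed. At annotated starts, at coding-exon starts and when summed, it removed no call. The intron start of Sfp26Ad, just past the rule in the main setting, was not run under the alternatives. With a pseudocount of 3 TPM, 8 genes were lower at annotated starts and 5 when summed, in place of 16 and 13. A fall from under 9 TPM in Control cannot pass there, while Sfp33A3 at -1.83 and Acp53C14a at -1.99 missed the rule from higher levels. The calls lost at annotated starts were Sfp26Ac, Acp26Ab, Sfp33A3, Sfp51E, Acp53C14a, Acp63F, Sfp65A and Sfp96F, and Acp53C14b was lost at coding-exon starts. With 0.5 TPM, 5 genes were higher at coding-exon starts in place of 3. The median log2 ratio at annotated starts was -2.76 with 0.5 TPM and -1.38 with 3 TPM. Summed over clusters the median was -1.92, and -2.52 and -1.04 under these. At coding-exon starts it was 3.96 and 1.77, and 2.44 after rescaling. With clusters of at least 1 TPM, 11 genes had a KmgKD cluster, in place of 19. With a TSS window of 50 bp, which leaves out the KmgKD start of Acp95EF, 18 had one and 17 were lower at annotated starts. A window of 500 bp gave 23 genes with a KmgKD cluster, 14 lower at annotated starts and 2 higher at coding-exon starts. Without Acp95EF, a setting chosen after seeing the data, annotated starts summed to 26.6 TPM in KmgKD and 333 TPM in Control, and coding exons held 89.0% of tags in KmgKD and 0.870% in Control. No paired analysis was possible because each group had 1 pooled value, and leaving out a library was not run for the same reason.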
